A study of Mus musculus with 71 samples.

Results

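The Hedgehog pathway genes described here were Ptch1, Smo, Sufu, Gli1, Gli2, Gli3 and Hhip, 7 of the 55450 genes that GENCODE annotates on the mouse chromosomes. A chromatin loop belonged to a gene when at least 1 of its anchors came within 2 kb of any annotated transcription start site (TSS) of that gene. By this rule the 7 genes held 69 of the 24244 loops in the merged H3K27ac HiChIP list. The rule itself used no measured value, though the genes were picked with earlier results of these data known.

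H3K27ac HiChIP joins proximity ligation to immunoprecipitation of histone H3 acetylated at lysine 27, a mark of active promoters and enhancers, so that each paired-end tag records a contact in which at least 1 end was captured with the mark. The chromatin came from 2 tumors of hSS2 mice, which carry the human SS18::SSX2 fusion of synovial sarcoma and express it from the Rosa26 locus after Cre recombinase has acted. Tumors were initiated by injecting TATCre protein into the hindlimb at day 8 of life and were harvested when they caused morbidity. The mice were of a mixed C57Bl/6 and SvJ strain, 2 to 6 months old. TATCre can enter any cell type near the injection. There was no group without the fusion, and no other treatment. Whole tumors were dissociated without a sort, so immune, endothelial and stromal cells could contribute. Of their defining genes, Ptprc, Cd68, Csf1r, Pecam1 and Kdr had no loop, for which a count of 0 allows up to 3 tags, and Cdh5 had 3 tags. Tle1, a marker of synovial sarcoma, had 4 tags. A loop count is no measure of expression, and the share of other cells in the results below was not tested.

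Hedgehog signaling starts when a secreted ligand binds the receptor Ptch1. Without ligand Ptch1 holds Smo, a membrane protein that passes the signal on at the primary cilium, in its inactive state. Sufu binds the Gli transcription factors in the cytoplasm and restrains them, and Gli3 is processed to a repressor. With ligand, Smo becomes active and Gli2 and then Gli1 switch on the targets. Ptch1, Gli1 and Hhip, which binds and sequesters the ligand, are themselves targets of the pathway and limit or extend its signal.

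All 7 genes had at least 1 loop. Among all annotated genes 23.9% had a loop, and among protein-coding genes 45.8%. The loop score of a gene, the sum of the tags in its loops, ran from 1 to 118 and was concentrated on 1 gene. Ptch1 held 33 loops and 118 of the 166 tags, with a 95% Poisson interval of 97.7 to 141. Sufu followed with 24 tags (interval 15.4 to 35.7) in 13 loops. Gli1 had 9 tags (4.12 to 17.1) in 8 loops. Gli3 had 7 tags (2.81 to 14.4) in 7 loops, and Gli2 had 6 tags (2.20 to 13.1) in 6 loops. Smo and Hhip had 1 loop of 1 tag each, with an interval of 0.0253 to 5.57. These intervals cover counting error only, since the list gives no value for either tumor by itself.

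The interval of Ptch1 lay above those of the other 6 genes. The first part alone gave this order, with Ptch1 at 102 tags and Sufu at 6. In the second part Ptch1 had 16 tags (interval 9.15 to 26) and Sufu 18 (10.7 to 28.4), so the lead of Ptch1 was lost there. Of these 18 tags of Sufu, 11 came from an anchor with no start site of a protein-coding transcript within 2 kb. Of the 16 tags of Ptch1, 9 came from an anchor of this kind, 7 of them in a loop to an anchor with such start sites. The interval of Sufu overlapped that of Gli1 and lay above those of Gli2, Gli3, Smo and Hhip. With RefSeq start sites Sufu had 13 tags (6.92 to 22.2), and its interval then overlapped those of Gli2 and Gli3. Gli1, Gli3, Gli2, Smo and Hhip all overlapped one another, so their order was not resolved at this depth. Among the 13234 genes with a loop, whose median loop score was 4, Ptch1 ranked at 23 and 99.8% had a lower score. Of the same genes 92.0% had a lower score than Sufu, 73.7% than Gli1, 66.6% than Gli3 and 61.6% than Gli2. Smo and Hhip had the lowest score that a looped gene can have.

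**Figure D1:**
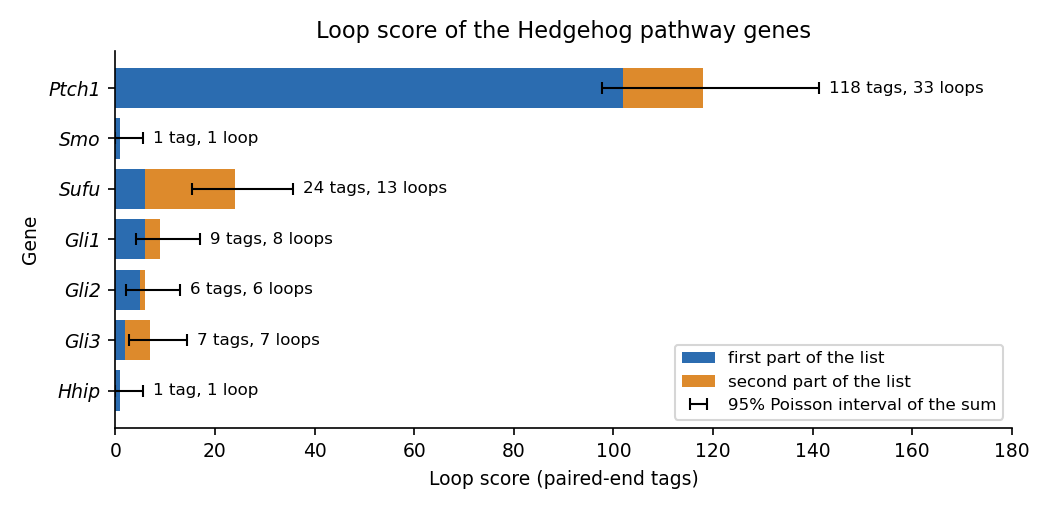
Loop score of each Hedgehog pathway gene, in paired-end tags, as bars stacked by the first and second part of the merged list. Whiskers are 95% Poisson intervals of the sum. Ptch1 reaches 118 tags, Sufu 24 and the other 5 genes 9 or fewer.

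The genes did not offer the same length of anchor for tags to fall in. The promoter-side anchors of Ptch1 covered 14.7 kb in all, those of Sufu 6.56 kb, those of Gli1 4.71 kb, those of Gli3 4.14 kb, that of Smo 2.99 kb, that of Gli2 2.91 kb and that of Hhip 2.10 kb. Per kb of anchor the loop score was 8.04 tags for Ptch1, 3.66 for Sufu, 1.91 for Gli1, 1.69 for Gli3 and 2.06 for Gli2. It was 0.334 for Smo and 0.477 for Hhip. Ptch1 and Sufu were also the genes with the highest score on this scale.

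Most loops of these genes rested on a single tag. Of the 69 loops 44 had 1 tag, which is 63.8%, beside 78.0% of all loops of the list. All loops of Gli2, Gli3, Smo and Hhip had 1 tag. The median span between anchor midpoints was 381 kb, against 500 kb for all loops of the list. Of the 69 loops 12 were longer than 1 Mb, beside 5204 of all 24244 loops. The loop caller gave 20 of the 69 an FDR under 0.01, beside 15.2% of all loops, and 17 of these 20 were at Ptch1, 2 at Sufu and 1 at Gli1. No loop of 1 tag anywhere in the list had an FDR under 0.0118, so this threshold could not be met by a gene whose loops all had 1 tag.

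**Figure D2:**
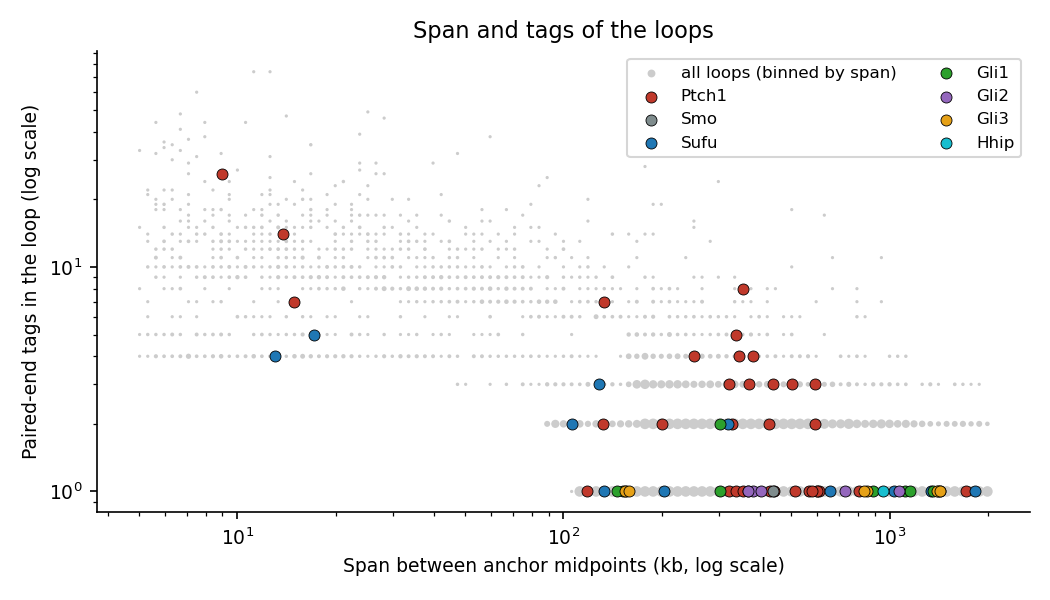
Span between anchor midpoints in kb and paired-end tags per loop, both on log scales, for all loops of the list (gray, binned by span, larger dots for more loops) and for the loops of each Hedgehog pathway gene (colored). Beyond 300 kb the loops of Ptch1 reach 8 tags, while those of the other 6 genes have 1 or 2.

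Ptch1, the receptor, lies on the minus strand at chr13:63508328-63573598 and has 10 annotated start sites. Its loops began at 3 anchors. The anchor at chr13:63560446-63567187 holds 5 of the start sites, among them those of 4 protein-coding transcripts, and was an end of loops with 99 tags in all. The anchor at chr13:63571175-63574439 lies farther upstream and holds 2 start sites at the 5′ end of the gene, 1 of them of a protein-coding transcript. Below, the start sites of the first anchor are called the coding start sites and those of this anchor the upstream start sites. These names are labels only, since the upstream ones include a coding one. The anchor at chr13:63546567-63551236 lies within the gene, near the start site of a transcript with a retained intron. The first anchor was shared with the window of A930032L01Rik and the upstream anchor with that of the long noncoding RNA Gm30655, so their loops cannot be assigned to 1 gene alone. RefSeq gives a promoter for the start site in the first anchor, chr13:63565686-63565985 (GRCm38.p6, minus strand, 250 bases before the TSS to 50 after it). It is shown because it lies in the anchor from which the loops with the most tags set out. The loops cannot be assigned to 1 of the 5 start sites there.
Ptch1 promoter: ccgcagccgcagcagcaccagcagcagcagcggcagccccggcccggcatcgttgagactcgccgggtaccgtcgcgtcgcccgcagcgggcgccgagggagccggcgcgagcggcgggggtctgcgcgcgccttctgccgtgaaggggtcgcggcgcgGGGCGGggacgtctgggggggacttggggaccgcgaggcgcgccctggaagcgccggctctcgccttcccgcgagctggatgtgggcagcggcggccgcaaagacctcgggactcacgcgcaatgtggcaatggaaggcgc

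Capitals mark the GC box GGGCGG, searched on both strands, which occurs once in this promoter and in 35.9% of the 32544 promoters in the RefSeq table. The GC content was 76.3% and there were 47 CpG dinucleotides, beside medians of 53% and 7 over the table.

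The loop of Ptch1 with the most tags joined the first 2 of these anchors to each other. It had 26 tags over 8.99 kb, with an FDR of 6.4e-11. Of 97 other loops in the same part of the list with a span within 20% of this, the median had 12 tags and 91.8% had fewer than 26. The next loop led from the coding start sites into the body of Ptch1, to chr13:63548818-63551236, and had 14 tags over 13.8 kb at an FDR of 6.0e-04. Within the first part of the list it was not unusual for its length, since loops of like span had a median of 13 tags. In the second part the same contact had 7 tags over 14.9 kb, at an FDR of 0.0014. There the median of like span was 4 tags, and 91.8% had fewer than 7.

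Away from the gene, the contacts of Ptch1 were spread over a wide stretch on its upstream side. The loop with the most tags among these ran from the coding start sites over 355 kb to chr13:63917498-63920165, an intergenic anchor 23.5 kb from the closest TSS of another gene, that of Ercc6l2. It had 8 tags and an FDR listed as 0. Among 1744 other loops of the first part with a like span the median was 1 tag, and 99.6% had fewer than 8. The upstream start sites reached the same anchor with 4 tags at an FDR of 2.0e-06. Of the 18 tags at that anchor, 12 led to Ptch1. The central 300 bases of this anchor are shown because it is the distal site outside the gene with the most Ptch1 tags (chr13:63918682-63918981, GRCm38, plus strand).
Distal anchor of Ptch1: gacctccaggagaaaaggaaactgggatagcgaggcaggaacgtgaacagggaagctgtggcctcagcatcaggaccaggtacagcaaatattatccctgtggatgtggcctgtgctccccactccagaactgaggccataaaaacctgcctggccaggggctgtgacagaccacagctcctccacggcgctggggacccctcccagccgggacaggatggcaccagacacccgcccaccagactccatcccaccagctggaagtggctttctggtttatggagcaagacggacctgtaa

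This stretch had a GC content of 59% and held neither the MboI site GATC nor the Gli motif searched below.

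A second site of this kind was chr13:63898867-63903373, at the 3′ end of Ercc6l2, a gene of a DNA repair helicase. The coding start sites of Ptch1 reached it with 5 tags over 337 kb at an FDR of 2.1e-08, and 97.1% of loops of like span had fewer tags. Of the 9 tags at that anchor 8 led to Ptch1. The promoter of Ercc6l2 itself, at chr13:63814405-63816420, shared 4 tags with Ptch1 at an FDR of 1.6e-05. An anchor near the processed pseudogene Gm7695 shared 4 tags with the coding start sites and 3 with the upstream start sites. Farther out, 4 tags led into Hsd17b3, 4 to the promoter of the zinc finger gene Zfp367 and 3 to that of Habp4. Intergenic anchors at chr13:63989374-63991438 and chr13:64002374-64003802 took 3 and 4 tags.

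The start sites of Ptch1 shared part of their contacts. With overlapping anchors joined, the coding start sites had loops to 17 distal sites, among them Fancc, the Ercc6l2 promoter and the intronic anchor. The upstream start sites had loops to 8 of these sites and to no others. At the 8 anchor intervals that both reached, counted before joining, the coding start sites had 27 tags and the upstream start sites 17. Another interval, which overlaps 1 of these 8, took 1 further tag of the coding start sites. The midpoints of these promoter anchors lie 8.99 kb apart.

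Downstream of Ptch1 the main contact was the promoter of Fancc, a gene of the Fanconi anemia repair pathway. The coding start sites had 7 tags to it in the first part of the list over 133 kb, at an FDR of 0.026, and 2 tags in the second part at an FDR of 0.0045. The 7 tags equaled the median of 70 other loops of like span. In the second part the median of like span was 1 tag, and 86.8% had fewer than 2. A further 4 tags led to the promoters of 2010111I01Rik and Gm47586 over 321 and 322 kb. Another start site of 2010111I01Rik, at chr13:62964016-62966243, was reached with 1 tag over 599 kb and 1 tag over 608 kb. Outside the loops within its own promoters, Ptch1 had 55 tags upstream and 30 downstream, which is 64.7% upstream (Wilson 95% interval 54.1 to 74.0). Of the downstream tags 14 were those of the first-part loop into its own intron, and without them 55 of 71 tags or 77.5% lay upstream (66.5 to 85.6). In the second part the wider anchor of that contact came within 2 kb of a Ptch1 start site. Its 7 tags were therefore counted as within the promoters and in neither direction. Over all protein-coding genes 50.7% of such tags lay upstream.

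**Figure D3:**
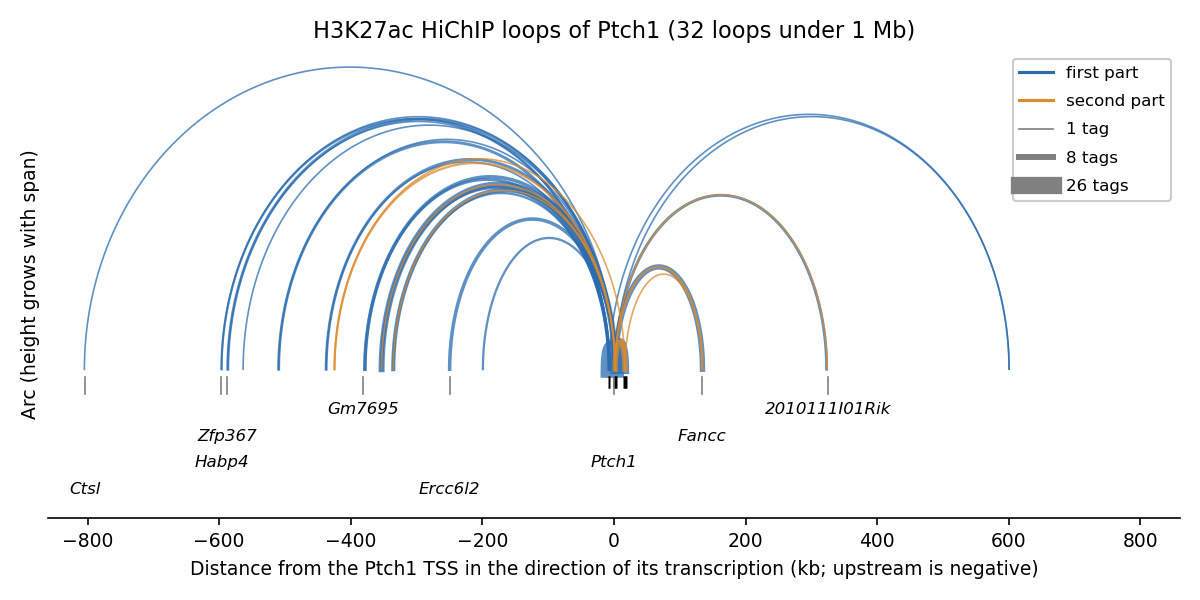
Loops of Ptch1 with a span under 1 Mb, by distance in kb from the TSS at the coding start sites along the direction of transcription. Each arc is a loop, its width grows with its tags and its color gives the part of the list. Black marks are the promoter-side anchors and gray ticks are start sites of named genes. A bundle of arcs leads 201 to 598 kb upstream.

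Several contacts of Ptch1 appeared in both parts of the list. The intergenic anchor at 355 kb had 8 tags in the first part and 1 in the second, and the anchor at the end of Ercc6l2 had 5 and 1. Fancc had 7 and 2, the anchor at 2010111I01Rik 3 and 1, and the intronic anchor 14 and 7. Over all 7 genes, 8 of 44 loops of the first part were found again in the second, with both anchors overlapping, beside 6.5% of all loops of the first part. In the other direction 8 of 25 loops were found again, beside 8.42% of all loops. Whether the parts stand for the tumors is not given in the sources used here.

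The motif to which Gli factors bind, GACCACCCA, was searched on both strands in the 66 anchors of these loops. It occurred in 5 of them, which is 7.58%, and in 2.66% of all 16864 anchors. Longer anchors hold more positions for a match, and the median width was 2.85 kb here and 2.59 kb over all anchors. The 5 anchors with a match were 1.43 to 6.74 kb wide, and all 5 belonged to Ptch1. Both of its 5′ promoter anchors held a copy, and the copy in the upstream anchor was centered 9 bases from an annotated start site. It was absent from the 300-base promoters of all 6 genes of this set in the RefSeq table (all but Gli1), and present in 0.246% of the table. A match of letters is not a bound site. The matches are shown on the plus strand with 10 bases on either side, and the capitals mark the motif, which reads TGGGTGGTC where it lies on the minus strand.
Promoter anchor of the coding start sites, chr13:63566425-63566453: aaagtagagaGACCACCCAggtaggcaac
Promoter anchor of the upstream start sites, chr13:63573455-63573483: gccctcggcgTGGGTGGTCtgccgcgcca
Distal anchor at the 3′ end of Ercc6l2, chr13:63901490-63901518: cgtgacgccgTGGGTGGTCcagctttggt
Intergenic distal anchor past Gm7695, chr13:64003301-64003329: tcttcacagaGACCACCCAcatggctggg
Distal anchor at the Habp4 promoter, chr13:64162551-64162579: gccatcctccTGGGTGGTCattttccctg

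No GC box lay within these stretches.

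Hhip, the decoy of the ligand and a target of the pathway, lies on the minus strand at chr8:79965851-80058006. Its only loop had 1 tag in the first part of the list and ran over 957 kb to the promoters of Usp38, a deubiquitinase gene, and Gm9725, with an FDR of 0.026.

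Smo, the membrane protein that Ptch1 inhibits, lies on the plus strand at chr6:29735503-29761365. Its only loop had 1 tag in the first part and ran over 438 kb to Rncr4, a noncoding RNA, with an FDR of 0.044. A single tag does not separate either gene from no contact, and neither had a loop in the second part.

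Sufu, the negative regulator of the Gli factors, lies on the plus strand at chr19:46396896-46488804 and had 13 loops. The anchor at its 5′ end, chr19:46394326-46398030, held the start sites of 4 protein-coding transcripts and was shared with the promoter of the dynactin gene Actr1a. It accounted for 13 tags. Another anchor, chr19:46483649-46486499, met the window of a transcript with a retained intron near the 3′ end of the gene and accounted for the other 11. RefSeq has no start site there, and with its start sites the loop score of Sufu was 13 instead of 24.

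The promoter of Sufu from the RefSeq table, chr19:46396646-46396945 (GRCm38.p6, plus strand), is shown because this gene had the highest score after Ptch1.
Sufu promoter: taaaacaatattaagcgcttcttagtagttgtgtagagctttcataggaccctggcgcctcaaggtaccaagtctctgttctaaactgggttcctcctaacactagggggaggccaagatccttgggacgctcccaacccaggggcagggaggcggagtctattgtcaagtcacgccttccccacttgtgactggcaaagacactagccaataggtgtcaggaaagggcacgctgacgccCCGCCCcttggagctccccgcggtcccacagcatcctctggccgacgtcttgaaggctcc

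Capitals again mark the GC box, which is read here on the other strand. The GC content was 56.3% and there were 12 CpG dinucleotides, beside 76.3% and 47 in the Ptch1 promoter.

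The gene that shared the most tags with Sufu was its downstream neighbor Trim8, which encodes a ubiquitin ligase. The anchor near the 3′ end of Sufu had 5 tags to the Trim8 promoter over 17.2 kb, at an FDR of 0.012, and the 5′ end had 2 tags to it over 106 kb, at an FDR of 0.011. Trim8 thus shared 7 of the 24 tags of Sufu, and these were 7 of the 11 tags of Trim8. The 5′ end also had 3 tags over 128 kb to chr19:46523087-46525617, an intergenic anchor 8.43 kb from a Trim8 start site. Its FDR of 1.4e-04 was the lowest of the Sufu loops, and 97.0% of the loops of like span in the same part had fewer tags. A loop of 4 tags within the gene, over 13.1 kb to chr19:46470403-46473629, equaled the median of loops of its length and had an FDR of 0.016. In the first part of the list, the loop with the most tags had 2, over 320 kb to the promoter of the nucleolar gene Nolc1, at an FDR of 0.0057. None of the Sufu loops appeared in both parts. Of its 24 tags 18 came from the second part, 11 of them at the anchor near the 3′ end. For Ptch1 16 of 118 tags came from that part, and over the whole list 12917 of 41574 did.

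The remaining 8 loops of Sufu had 1 tag each. Of these, 2 ended near no start site of another gene, and 1 of the others met the promoter of Btrc. Btrc encodes the F-box protein that targets Gli proteins for processing, and that loop ran over 1032 kb with an FDR of 0.026.

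Gli1, the activator whose own gene is a target, lies on the minus strand at chr10:127329882-127341974. Its 9 tags were 6 in the first part and 3 in the second, and no other gene shared its promoter anchors. The only loop of more than 1 tag led over 303 kb to the promoter of Stat6, a transcription factor of cytokine signaling, with 2 tags and an FDR of 0.0064. The same contact appeared in the second part with 1 tag at an FDR of 0.013. Stat6 thus shared 3 of the 9 tags of Gli1, which were 4.41% of the 68 tags of Stat6, since that promoter had many other loops. The 6 other loops of Gli1 had 1 tag each. Upstream they met the promoters of Timeless, Smarcc2, Myl6 with Myl6b, and Rab5b, at 892 to 1357 kb. Smarcc2 encodes a core subunit of the BAF complexes, into which SS18 fusions are built. Downstream they met those of Arhgef25 at 152 kb and Dtx3 at 146 kb. All 7 joined distal sites of Gli1 lay near another TSS.

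Gli2, the main activator downstream of Smo, lies on the minus strand at chr1:118834132-119053619. Each of its 6 loops had 1 tag, 5 of them in the first part. The promoter of Inhbb, which encodes a subunit of activin and inhibin, was reached in both parts over 367 and 368 kb, with an FDR of 0.049 and 0.012. A further pair of loops ended in the intergenic stretch beyond Inhbb, 10.7 and 19.4 kb from the closest TSS, at spans of 381 and 404 kb. The others met the promoters of Dbi with 3110009E18Rik at 1067 kb and of Nifk at 731 kb.

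Gli3, the main repressor, lies on the plus strand at chr13:15463235-15730026. Its 7 loops had 1 tag each, 2 in the first part and 5 in the second. Its promoter anchor was shared with Gm26645 and Gm6556. The promoter of Tbce, a gene of a tubulin chaperone, and the pseudogene Gm48017 beside it were reached in both parts, over 1425 kb, at an FDR of 0.026 and 0.012. Both tags that the list holds for Tbce were shared with Gli3. The others upstream met the promoters of Arid4b with Ggps1, Mrpl32 with Psma2, and AW209491. A pair of loops stayed within Gli3 and ended in its introns, 155 and 159 kb downstream.

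The distal ends of these loops were compared by what lies there. Of the 54 distal anchor intervals, counted once for each gene they were linked to and with different edges counted apart, 38 or 70.4% lay within 2 kb of a TSS of another gene (Wilson 95% interval 57.2 to 80.9). Counted the same way over all protein-coding genes, the share was 87.9%. With overlapping intervals joined, the 7 genes had 49 distal sites, of which 34 or 69.4% lay near another TSS, and the share over all protein-coding genes was 87.8%. By tags the contrast in these counts was wider, with 45.9% of the tags of the 7 genes and 10.6% of those of all protein-coding genes leading to anchors near no other TSS. Ptch1 contributed most of this, with 8 of its 20 anchor intervals (7 of 17 joined sites) and 48 of its 85 tags to distal anchors of this kind, which include the 14 tags into its own intron. That intronic anchor overlaps the promoter-side anchor chr13:63546567-63551236 of the second part. There, the 7 tags of the same contact were counted within the promoters of Ptch1 and not as distal. For Sufu the counts were 4 of 12 intervals and 9 of 24 tags. Gli2 and Gli3 each had 2 of 6 such intervals, and Gli1, Smo and Hhip had none.

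**Figure D4:**
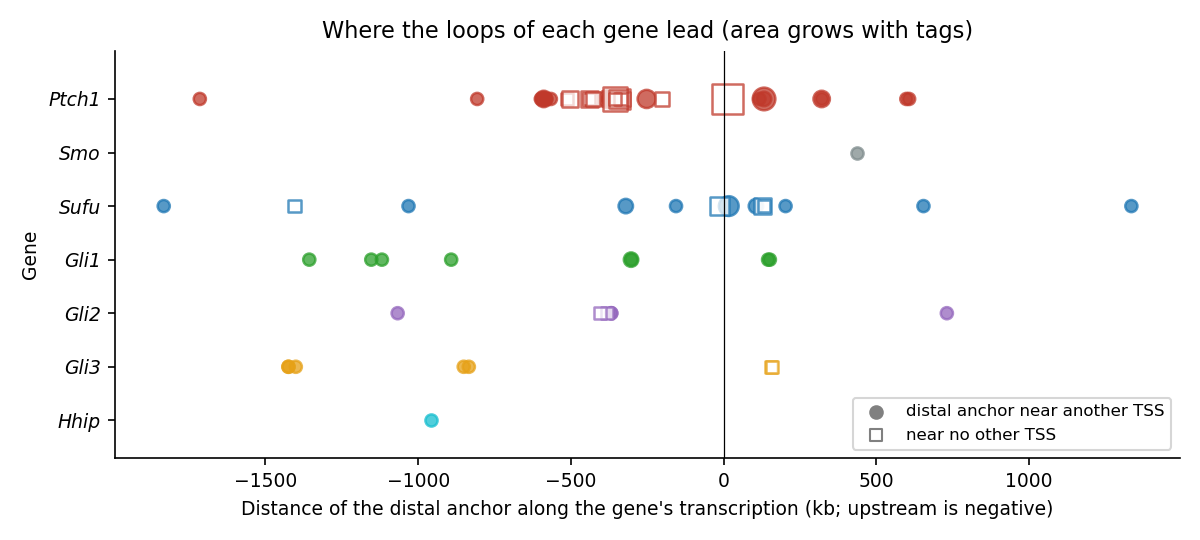
Distal anchors of each Hedgehog pathway gene by distance in kb along the direction of transcription, with upstream negative. Each symbol is a loop, its area grows with its tags, filled circles are anchors near a TSS of another gene and open squares are anchors near none. Open squares of Ptch1 outside the gene lie 201 to 511 kb upstream, while all symbols of Gli1 are filled.

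Other genes of the pathway gave lower scores than Ptch1. Of 29 such genes 19 had a loop, beside the 45.8% of protein-coding genes given above. Of these 19 genes, 6 had 10 or more tags, while 76.4% of all looped genes had fewer than 10. The ligand genes Shh, Ihh and Dhh had no loop, nor did Scube2, which helps release the ligand. Hhat, which attaches palmitate to the ligand, had 10 tags, Disp1 had 5 and Disp2 had 1. Among co-receptors, 3 of 4 genes had a loop. Gas1, a co-receptor, had 11 tags. Of these, 8 were in 1 loop of 53.1 kb, at an FDR of 0.026, that ended near no TSS of another gene. Boc had 10 tags, all in the second part, Cdon had 1 and Lrp2 had none.

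Of 12 regulators in the cilium and cytoplasm, 8 had a loop. Stk36, a kinase related to Drosophila fused, had 19 tags, though the anchor of its loop with the most tags was shared with Rnf25. Gsk3b, which phosphorylates Gli proteins, had 18 tags, all in the first part. Prkaca had 7, Csnk1a1 had 6, Ift88 had 4, Evc had 3, and Spop and Arl13b had 1 each. Kif7, Gpr161, Evc2 and Kif3a had none. Among 6 genes described as Gli targets, 5 had a loop. Ccnd2, the gene of cyclin D2, had 27 tags (interval 17.8 to 39.3), the most of the 29. Its loop with the most tags had 7 over 344 kb, at an FDR of 7.2e-13, and ended near no TSS of another gene. Foxl1 had 5 tags, Foxf1 had 4, Ccnd1 had 2, Mycn had 1 and Bcl2 had none.

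**Figure D5:**
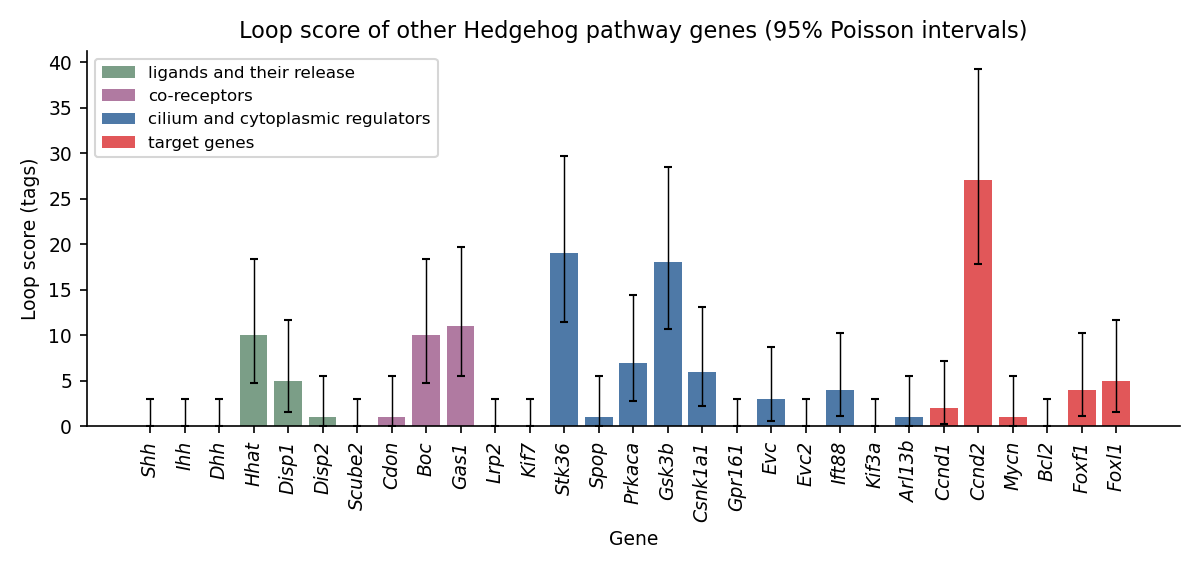
Loop score in tags of 29 other Hedgehog pathway genes, colored by role. Whiskers are 95% Poisson intervals, and for genes without a loop they reach the 3 tags that a count of 0 allows. Ccnd2 has 27 tags, Stk36 19 and Gsk3b 18, and the ligand genes Shh, Ihh and Dhh have none.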

How the data were processed

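H3K27ac HiChIP of 2 hSS2 tumors was deposited as 1 merged loop list on mm10. The authors mapped reads with HiC-Pro and called loops with hichipper, whose statistics come from Mango. The methods name an FDR under 0.05, while a legend says that loops were called in 2 tumors at an FDR under 0.01 and then merged. The listed FDRs go beyond 0.01 and stay under 0.05. The deposited count is the number of paired-end tags per loop, not normalized. The deposited FDR is the loop caller's p-value adjusted for multiple testing. How tags and FDRs were combined in the merge is not given in the sources used here. The list held 24244 loops and 41574 tags, in 2 consecutive sorted parts of 13683 and 10561 loops, which were used together and assigned to no tumor. A contact listed in both parts counts as 2 loops.

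Loops were assigned to all GENCODE vM21 start sites (GRCm38, the assembly of mm10) within 2 kb. The alternatives were 1 kb, 5 kb, RefSeq start sites, stricter FDR, at least 2 tags and each part alone. Spans are between anchor midpoints, and "like span" means within 20% in the same part. With 1 merged list there are no replicate values and no test was made. Poisson intervals for tags and Wilson intervals for shares are at 95%, and tags are not known to be independent molecules. Genes were named by a rule that took all 7 members, the ends of their loops with the most tags, their partner genes and a list of 30 pathway genes, of which 29 are reported here. Other genes at loops of 1 tag, such as Btrc and Smarcc2, were named after their values were seen. The members and lists were chosen with earlier results of these data known. Promoters are those of RefSeq (GRCm38.p6), which matched 6 of the 7 genes, and distal sequence was read from the same assembly. The assignment was tested on simulated data, where 100% of 416 planted loops reached their promoter. The ChIP-seq of the series was not used here. Tables were computed in Python (version 3.11.15) with pandas 2.3.3 and numpy 2.4.6, intervals with scipy 1.17.1, and plots with matplotlib 3.10.9.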

Additional observations from a re-analysis of the deposited data

How the results depend on the processing

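All 7 genes kept a loop with windows of 1 and 5 kb, with RefSeq start sites and in the first part alone, and 5 of 7 did in the second part. With an FDR under 0.01 only Ptch1, Sufu and Gli1 had a loop (3 genes), with an FDR under 0.001 only Ptch1 and Sufu (2), and with at least 2 tags 3 genes. The summed loop score of 166 was 153 to 173 with the other windows and start sites. It fell to 102 with an FDR under 0.01, 122 with at least 2 tags, 123 in the first part and 43 in the second, and to 48 without Ptch1, a setting chosen after seeing the data. The share of distal anchors near another TSS was 53.3% with an FDR under 0.01 and 57.1% in the second part. It was 67.3% with a window of 1 kb, 75.5% with 5 kb and 66.7% with protein-coding start sites alone. In the first part it was 77.1%, and without Ptch1 76.5%. The upper 95% Wilson limits of these last shares, 87.9% and 87.6%, came close to the 87.9% of all protein-coding genes at the main setting. The median span was 333 kb with an FDR under 0.01, 320 kb with at least 2 tags and 159 kb in the second part. Joining overlapping anchors, also chosen after seeing the data, gave 69.4%. The FDR, tag and part settings hold fewer loops by construction. Of single genes, all 7 moved outside their Poisson interval with an FDR under 0.01, where Ptch1 had 95 tags, and 5 did with at least 2 tags. Sufu and Gli3 did in the first part alone, 5 genes in the second, and only Sufu with RefSeq start sites. No paired analysis was possible because the merged list holds no values for single tumors. Most loops rest on 1 tag, and for Gli2, Gli3, Smo and Hhip that depth does not separate a single loop from none.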

Other observations

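The sites that Ptch1 contacted were also linked to one another. Between the farthest ends of the Ptch1 loops under 1 Mb, chr13:62964016-64371828, the list held 56 loops with 155 tags, of which 24 loops with 38 tags had no anchor within 2 kb of a Ptch1 start site. These include 3 loops from an anchor in an intron of Ptch1. That anchor, chr13:63548818-63551236, had 3 tags over 453 kb to the intergenic anchor at chr13:64002374-64003802, at an FDR of 3.9e-05, and 2 tags over 369 kb to the anchor at chr13:63917498-63920165, at an FDR of 0.0032. The Fancc promoter had 3 tags over 513 kb to the anchor near Gm7695, at an FDR of 2.8e-05, and 2 tags over 939 kb to the promoter of Ctsl, the gene of cathepsin L. The loop with the most tags among the 24 had 7 over 8.67 kb, at an FDR of 0.0016, from the promoters of 2010111I01Rik and Gm47586. These loops lie in a stretch defined by the Ptch1 loops, so their number is given as a description.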
